A study of Mus musculus with 6 samples.

Results

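The Frizzled receptors are the 10 genes Fzd1 to Fzd10, and all 10 were found as rows among the 43430 Ensembl gene IDs of the count table by matching each ID to its symbol. The counts come from RNA-seq of sorted lung fibroblasts, taken as cells with PDGFRA (a growth factor receptor of mesenchymal cells) on their surface, of male C57BL/6J mice of 9 to 11 weeks. The hypercapnia group breathed 10% CO2 for 10 days and the control group breathed room air. Each group had 9 mice, and the lung cells of 3 mice were pooled for each of its 3 libraries, so that the spread between libraries is one between pools. The labels of the CO2 samples write the sorted marker as PDGFR without its alpha. The hypercapnia libraries are called M4, M5 and M6 and those of room air M1, M2 and M3.

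Frizzleds are receptors with 7 membrane-spanning helices that bind secreted Wnt proteins through a cysteine-rich domain outside the cell. With a co-receptor of the LRP5 and LRP6 type they bring Dishevelled to the membrane and stabilise beta-catenin. With ROR or RYK co-receptors and the planar polarity proteins they signal without beta-catenin. In the lung, fibroblasts are a source of Wnt ligands for alveolar epithelial progenitors and carry Frizzled receptors themselves.

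All 10 mouse genes encode, after the last helix, the short motif that docks Dishevelled, a lysine and a threonine followed by 3 variable residues and a tryptophan. The coding bases around it are shown for the members on which the results turn, because they show how close the family members are at the site they share. Capitals mark the codons of the motif, and the sequences are read 5′ to 3′ on the coding strand from GENCODE M21 transcripts of the mm10 (GRCm38) build.
Fzd1: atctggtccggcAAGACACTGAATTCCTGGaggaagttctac
Fzd2: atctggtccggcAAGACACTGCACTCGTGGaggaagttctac
Fzd7: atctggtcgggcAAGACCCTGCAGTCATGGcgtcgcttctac
Fzd4: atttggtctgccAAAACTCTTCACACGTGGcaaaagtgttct
Fzd6: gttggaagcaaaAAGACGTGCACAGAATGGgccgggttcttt

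These windows lie at chr5:4755694-4755735 (minus strand) for Fzd1, chr11:102606361-102606402 (plus) for Fzd2, chr1:59484595-59484636 (plus) for Fzd7, chr7:89408229-89408270 (plus) for Fzd4 and chr15:39033937-39033978 (plus) for Fzd6. Of the 42 bases, 3 in Fzd2 and 10 in Fzd7 differ from Fzd1, against 17 in Fzd4 and 25 in Fzd6. After the motif, the coding sequence of Fzd1, Fzd2 and Fzd7 runs on for only 17 residues, that of Fzd4 for 33 residues and that of Fzd6 for 206 residues. Despite the likeness of Fzd1 and Fzd2 at this site, the annotated transcripts of the 10 genes shared no window of 50 bases with each other. A read of at least 50 bases that matches exactly can therefore be told apart between members.

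The libraries held between 8999780 and 10198336 counts, and Frizzled genes took between 0.0830% and 0.102% of them. Levels are given as CPM, which are counts scaled to library size with TMM factors, and levels of different genes are compared only as CPM per kb of annotated exon. The sort was checked by its markers. Pdgfra had 2965 ± 419 CPM in hypercapnia and 3557 ± 209 CPM in room air (SD, n = 3 each), and Col1a1, a collagen chain of fibroblasts, had 4932 ± 478 CPM in hypercapnia and 5070 ± 285 CPM in room air. The leukocyte gene Ptprc (CD45) had no count in hypercapnia, where 3 counts over the group equal 0.101 CPM, and at most 0.236 CPM in a room air library, while the endothelial genes Pecam1 and Cdh5 reached 390.0 and 580 CPM in M4. The summed level of 10 epithelial markers ran from 390 to 690 CPM over the libraries, and that of 8 leukocyte markers from 11.9 to 61.5 CPM. Transcripts of other cell types, endothelial ones among them, were thus present in a sort for fibroblasts. The endothelial level is given beside the receptors that moved with it. In such bulk samples fewer cells of a type and less RNA per cell cannot be told apart.

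Fzd1 was the most abundant receptor in all 6 libraries, followed by Fzd7 and, in all libraries but M4, by Fzd2. In M4 Fzd4 stood above Fzd2. Fzd1 reached 87.5 ± 2.83 CPM per kb in hypercapnia and 118 ± 8.11 in room air (SD, n = 3), which put its mean over the 6 libraries above 96.95% of the 13005 genes tested. Fzd7 followed at 48.2 ± 8.53 CPM per kb in hypercapnia and 51.2 ± 4.20 in room air. Fzd2 had 26.5 ± 6.96 CPM per kb in hypercapnia and 23.4 ± 2.19 in room air, and Fzd4 had 19.4 ± 1.31 in hypercapnia and 11.8 ± 3.98 in room air. Fzd8 had 7.34 ± 2.11 CPM per kb in hypercapnia and 10.0 ± 2.54 in room air. The next 3 lay below the median tested gene, which had 5.72 CPM per kb. Of these Fzd6 had 2.95 ± 0.579 CPM per kb in hypercapnia and 1.83 ± 1.13 in room air, Fzd5 had 1.97 ± 0.571 in hypercapnia and 1.81 ± 0.414 in room air, and Fzd3 had 0.879 ± 0.311 in hypercapnia and 0.840 ± 0.180 in room air. Between neighbours in this order the libraries of a group overlapped for Fzd2 and Fzd4 and for Fzd3 and Fzd10 in hypercapnia, and for Fzd4 and Fzd8 and for Fzd6 and Fzd5 in room air. Fzd10 and Fzd9 also overlapped in hypercapnia, where both held libraries at 0. The other neighbours did not overlap in either group.

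**Figure D1:**
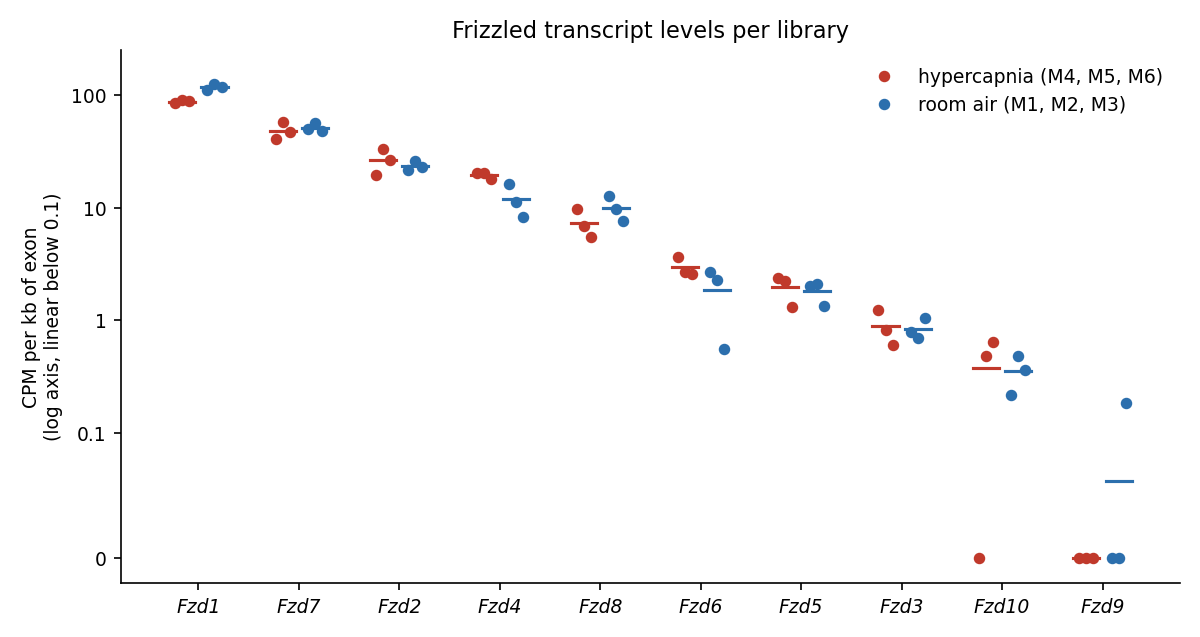
Transcript level of each Frizzled gene in CPM per kb of exon (log axis, linear below 0.1), with 1 point per library and a bar at the group mean, hypercapnia in red to the left of room air in blue. Fzd1 stands highest in both groups, and Fzd9 is at 0 in all libraries but M3.

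By edgeR's quasi-likelihood test 0 of the 9 Frizzled genes that passed the filter on low counts changed, at an adjusted p threshold of 0.05 over all 13005 tested genes, of which 1.22% were called. At an unadjusted p under 0.05 the test gave 2 of 9, Fzd1 and Fzd4, against 12.0% of all tested genes. The same 2 genes were those whose libraries separated by group without overlap, as in 18.0% of all tested genes. The other tools differed on these genes. DESeq2, which called 3.34% of the genes (1.61% higher and 1.73% lower), called Fzd4 higher and Fzd1 lower. Limma-voom, which called 1.51% of the genes and 0.854% lower, called Fzd1. With robust dispersion edgeR called 1.96% of the genes (0.846% higher and 1.11% lower), among them Fzd1. Without robust dispersion edgeR called 0 of the tested members without composition factors (1.32% of all genes) or with a stricter filter (1.53%). RLE in place of TMM factors (1.18%) also gave 0, as did leaving out M2 (0.179%), M3 (0.889%), M4 (1.1%), M5 (0.203%) or M6 (0.317%). Fzd1 and Fzd4 were called with no filter (3.62%), Fzd4 without M1 (0.818%) and Fzd8 with the endothelial level as a covariate (1.39%). The 9 log2 fold changes ran from -0.45 to 0.72 with a median of 0.09, beside a median of 0.01 over all tested genes, and 6 were positive. Positive values mean higher in hypercapnia.

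**Figure D2:**
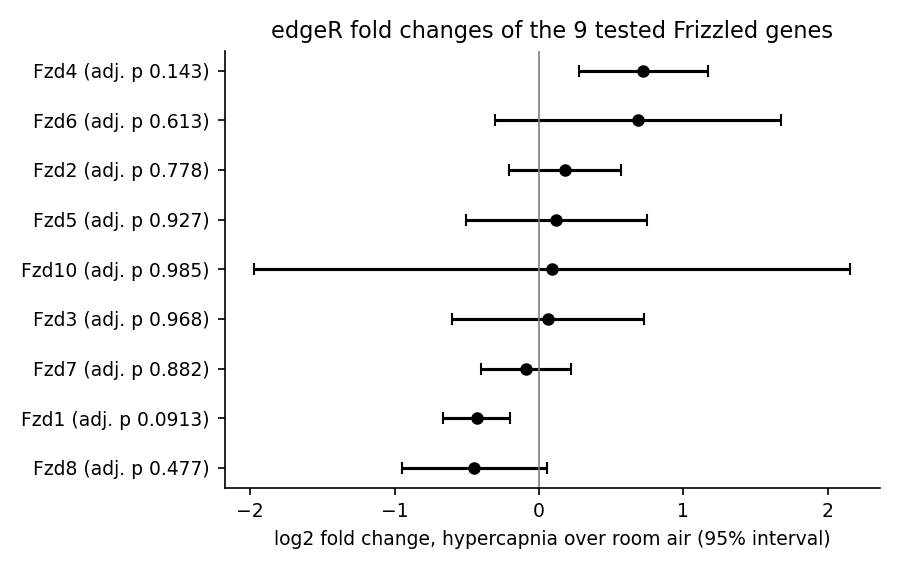
The edgeR log2 fold change, hypercapnia over room air, of the 9 tested Frizzled genes (points) with its 95% interval (bars) and adjusted p over all genes. The intervals of Fzd1 and Fzd4 lie on one side of 0 and those of the other 7 genes cross it.

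Fzd1, Fzd2 and Fzd7 are close relatives that respond to several Wnt ligands and are found in many mesenchymal cells. Fzd1, ENSMUSG00000044674, is a gene of 1 exon on chromosome 5 from 4753839 to 4758035. It had 355, 378 and 369 CPM in M4, M5 and M6, against 461, 529 and 496 CPM in M1, M2 and M3. All 3 hypercapnia libraries were below all 3 room air libraries, as in 8.76% of all tested genes, and the highest hypercapnia library stood well under the lowest room air library. The log2 fold change was -0.43 ± 0.11 (SE), with a 95% interval of -0.66 to -0.20 and an edgeR adjusted p of 0.0913. The value lay between -0.48 and -0.37 in all 14 alternative settings, and the adjusted p between 0.00650 and 0.351. It was under the threshold with DESeq2 (0.00650), limma-voom (0.0466), robust dispersion (0.0395) and no filter on low counts (0.0339), and above it without any 1 library (0.111 without M1 to 0.351 without M2). The p-values of the fit with no filter are those of a normal distribution. They therefore carry little of the spread of single genes between pools. Of 9 markers of alveolar fibroblasts, which lie in the walls of the air sacs, 5 fell by the same test, where 0.700% of all tested genes were called lower. All 9 were lower in every hypercapnia library than in any room air library. Their sum ran from 9357 to 10593 CPM in hypercapnia and from 12885 to 13914 CPM in room air. Of 7 markers of adventitial fibroblasts, which lie around vessels and airways, 6 had a positive value and none was called. The part of either list in the Fzd1 difference was not tested.

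Fzd7, ENSMUSG00000041075, is a gene of 1 exon on chromosome 1 from 59482424 to 59486955. It had 182, 259 and 213 CPM in M4, M5 and M6, against 224, 254 and 218 CPM in M1, M2 and M3. The groups overlapped, and M5 was the highest of the 6 libraries while M4 was the lowest. The log2 fold change was -0.09 ± 0.14 with a 95% interval of -0.40 to 0.22 and an edgeR adjusted p of 0.882, and without M4 it turned to 0.03.

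Fzd2, ENSMUSG00000050288, lies on chromosome 11 from 102604396 to 102608058, again as 1 exon. It had 71.2, 122 and 97.4 CPM in M4, M5 and M6, against 78.9, 94.5 and 83.7 CPM in M1, M2 and M3. Its hypercapnia libraries spread on both sides of the room air ones, with M4 the lowest and M5 the highest of all 6. The log2 fold change was 0.18 ± 0.18 with a 95% interval of -0.21 to 0.57 and an edgeR adjusted p of 0.778, and without M5 it turned to -0.02.

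Counts of 2 genes of the same library can be set against each other without any library factor. For every 100 counts of Fzd1, Fzd2 had 20.1, 32.3 and 26.4 counts in M4, M5 and M6, against 17.1, 17.9 and 16.9 in M1, M2 and M3. Fzd7 had 51.5, 68.6 and 57.8 counts per 100 of Fzd1 in M4, M5 and M6, against 48.7, 48.0 and 44.1 in M1, M2 and M3. Both ratios were higher in every hypercapnia library than in any room air library, and that of Fzd2 varied little within room air (17.3 ± 0.516, SD, n = 3) and more within hypercapnia (26.3 ± 6.12). Fzd1 itself was lower in every hypercapnia library, so both ratios in part restate its difference. Per 100 of Fzd1, Fzd4 and Fzd6 were also higher in every hypercapnia library, while Fzd3, Fzd5 and Fzd8 overlapped. Fzd7 per 100 counts of Fzd2 ran from 212 to 256 in hypercapnia and from 261 to 284 in room air. These ratios were looked at after the values of the members were seen and are given as a description, without a test.

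Fzd4 is the receptor of the secreted protein Norrin as well as of Wnts, and is best known for its part in blood vessel growth and the endothelial barrier. The gene, ENSMUSG00000049791, lies on chromosome 7 from 89404355 to 89413134 with 2 exon blocks. It had 135, 136 and 121 CPM in M4, M5 and M6, against 108, 75.4 and 54.9 CPM in M1, M2 and M3. All hypercapnia libraries were above all room air libraries, as in 9.25% of all tested genes, and the room air libraries differed more among themselves than the hypercapnia ones. The log2 fold change was 0.72 ± 0.20 with a 95% interval of 0.27 to 1.17 and an edgeR adjusted p of 0.143. It was 0.30 to 1.002 over the 14 alternatives, with adjusted p from 2.08e-05 to 0.438. Fzd4 was called with DESeq2 (0.0158) and without a filter on low counts (2.08e-05, where 3.62% of the genes were called). In the fit without a filter its SE was 0.14, against 0.20 as reported, and its p is that of a normal distribution. That p therefore carries little of the spread of Fzd4 between pools. Without M1 Fzd4 was also called, at a log2 fold change of 1.002 and an adjusted p of 0.0228, where 0.818% of the genes were called.

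The endothelial marker level moved with Fzd4. On the log2 CPM scale the mean over 15 endothelial genes was 7.53, 7.24 and 6.84 in M4, M5 and M6, against 6.83, 6.62 and 5.16 in M1, M2 and M3. All 15 markers were detected and had values above 0, their median was 0.88 on the log2 scale, and none passed the adjusted threshold. Their summed level ran from 2528 to 4060 CPM in hypercapnia and from 741 to 2554 CPM in room air. M3, the library with the lowest endothelial level, had the lowest Fzd4, and within room air both ran M1 above M2 above M3. In hypercapnia the order differed, since Fzd4 was slightly higher in M5 than in M4. M6 and M1 had nearly the same endothelial level, with 121 CPM of Fzd4 in M6 and 108 CPM in M1. With that level as a covariate in the edgeR fit, the log2 fold change of Fzd4 was 0.30 ± 0.16 with an adjusted p of 0.388, and without M3 it was 0.51 with an adjusted p of 0.177. The summed endothelial level overlapped between the groups, with 2528 CPM in M6 below 2554 CPM in M1. The mean log2 level, which served as the covariate, was higher in every hypercapnia library than in any room air library. The margin was narrow, at 6.84 in M6 against 6.83 in M1. Exposure and endothelial level thus cannot be fully told apart, here or in any other fit with that covariate.

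**Figure D3:**
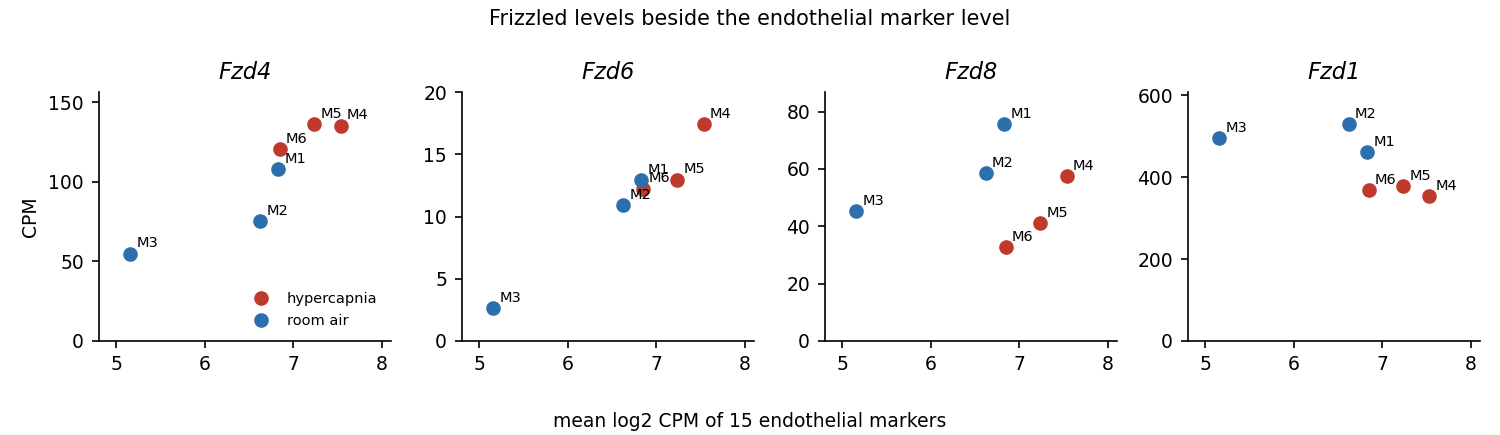
CPM of Fzd4, Fzd6, Fzd8 and Fzd1 (vertical, from 0) against the mean log2 CPM of 15 endothelial markers (horizontal), 1 point per library, hypercapnia in red and room air in blue. M3 is lowest on the horizontal axis at 5.16 and also lowest for Fzd4 and Fzd6. For Fzd1 the 3 room air libraries lie above the 3 hypercapnia ones. The groups do not overlap on the horizontal axis either, though M6 (6.84) and M1 (6.83) lie close together.

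Fzd6 and Fzd3 form another branch of the family, which acts with the planar polarity proteins that orient cells within a tissue. Fzd6, ENSMUSG00000022297, lies on chromosome 15 from 39006034 to 39038188. It had 17.4, 12.97 and 12.3 CPM in M4, M5 and M6, against 12.96, 10.9 and 2.65 CPM in M1, M2 and M3. M3 stood far below the other libraries with 25 counts, where the others had between 104 and 153. The log2 fold change was 0.69 ± 0.45 with a 95% interval of -0.30 to 1.67 and an edgeR adjusted p of 0.613. Without M3 it was 0.25, and with the endothelial level as a covariate it turned to -0.31 ± 0.31. Of its exonic bases 3.15% overlap a gene model on the other strand, and the strand setting of the counting is not given in the sources used here.

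Fzd3, ENSMUSG00000007989 on chromosome 14 from 65192449 to 65262463, had 15.6, 10.4 and 7.76 CPM in M4, M5 and M6, against 10.0, 8.92 and 13.3 CPM in M1, M2 and M3. M4 was the highest and M6 the lowest library, both of them hypercapnia, and the log2 fold change was 0.06 ± 0.30 with a 95% interval of -0.60 to 0.72 (edgeR adjusted p = 0.968). It turned to -0.06 without M2, to -0.24 without M4 and to -0.01 with limma-voom.

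Fzd8 and Fzd5 are a pair of relatives that signal mainly through beta-catenin in experimental assays. Fzd8, ENSMUSG00000036904 on chromosome 18 from 9212163 to 9218136, had 57.6, 41.2 and 32.8 CPM in M4, M5 and M6, against 75.5, 58.6 and 45.2 CPM in M1, M2 and M3. The groups overlapped, since M4 was above M3. The log2 fold change was -0.45 ± 0.23 with a 95% interval of -0.95 to 0.05 and an edgeR adjusted p of 0.477. Within each group Fzd8 ran in the same order as the endothelial level, M4 above M5 above M6 and M1 above M2 above M3. With the mean log2 endothelial level, which itself narrowly separated the groups, as a covariate the log2 fold change of Fzd8 was -0.92 ± 0.20. Its adjusted p in that edgeR fit was 0.0432, where 1.39% of the genes were called. Without M1 its value was -0.25, without M6 -0.28 and without M4 -0.69, none of them called. Pdgfra, the sorted receptor, ran in the same order, with 3359, 3012 and 2525 CPM in M4, M5 and M6, against 3701, 3652 and 3317 CPM in M1, M2 and M3. Whether either level accounts for the spread of Fzd8 was not tested.

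Fzd5, ENSMUSG00000045005 on chromosome 1 from 64730558 to 64737751, had 16.4, 15.3 and 9.07 CPM in M4, M5 and M6, against 13.8, 14.5 and 9.21 CPM in M1, M2 and M3. The groups overlapped almost fully, and the log2 fold change was 0.12 ± 0.28 with a 95% interval of -0.50 to 0.74 (edgeR adjusted p = 0.927). It turned to -0.06 without M3, to -0.03 without M4 and to -0.37 with the endothelial covariate. A gene model on the other strand covers 17.8% of its exonic bases, so part of its counts cannot be assigned to Fzd5 without the strand setting.

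Fzd10 and Fzd9, relatives of Fzd4 by sequence that are best known from the nervous system and from developing tissues, had the lowest levels of the family. Fzd9 was at the limit of detection, as was Fzd10 in M4. Fzd10 had 0, 16 and 22 counts in M4, M5 and M6, against 6, 15 and 11 counts in M1, M2 and M3. In M4 the 3 counts taken as the detection floor correspond to 0.341 CPM, while M5 and M6 stood at 1.57 and 2.06 CPM. The exact 95% Poisson interval was 0 to 3.69 counts for M4 and 9.15 to 26.0 counts for M5. Its log2 fold change was 0.09 ± 0.93 (edgeR adjusted p = 0.985). It turned negative without M1, M5 or M6, at -0.16, -0.13 and -0.51, and was 0.65 without M4. Fzd9 had 4 counts in all, every one of them in M3, and did not pass the filter. The counting intervals cover counting error only.

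Summed over the 10 genes, the receptor level was 181, 214 and 190.1 CPM per kb in M4, M5 and M6, against 215, 234 and 208 CPM per kb in M1, M2 and M3. The groups overlapped through M5, and the means were 195 ± 17.0 in hypercapnia and 219 ± 13.5 in room air (SD, n = 3). Fzd1 accounted for 46.6%, 42.1% and 46.3% of the sum in M4, M5 and M6, against 51.0%, 53.8% and 56.7% in M1, M2 and M3. Fzd4 accounted for 11.1%, 9.47% and 9.43% in M4, M5 and M6, against 7.46%, 4.79% and 3.92% in M1, M2 and M3. Fzd7 held a steadier share, between 22.2% and 26.7% in hypercapnia and between 23.0% and 23.9% in room air. Together Fzd1, Fzd2 and Fzd7 made up 83.0 ± 2.97% of the sum in hypercapnia and 87.8 ± 3.46% in room air, with overlapping groups. Their summed level was 144, 180.7 and 162 CPM per kb in M4, M5 and M6, against 180.8, 208 and 189 in M1, M2 and M3. It was thus lower in every hypercapnia library, though M5 lay only just below M1. The share of Fzd1 was thus lower and that of Fzd4 higher in every hypercapnia library than in any room air library, and shares of 1 sum are not independent of each other.

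**Figure D4:**
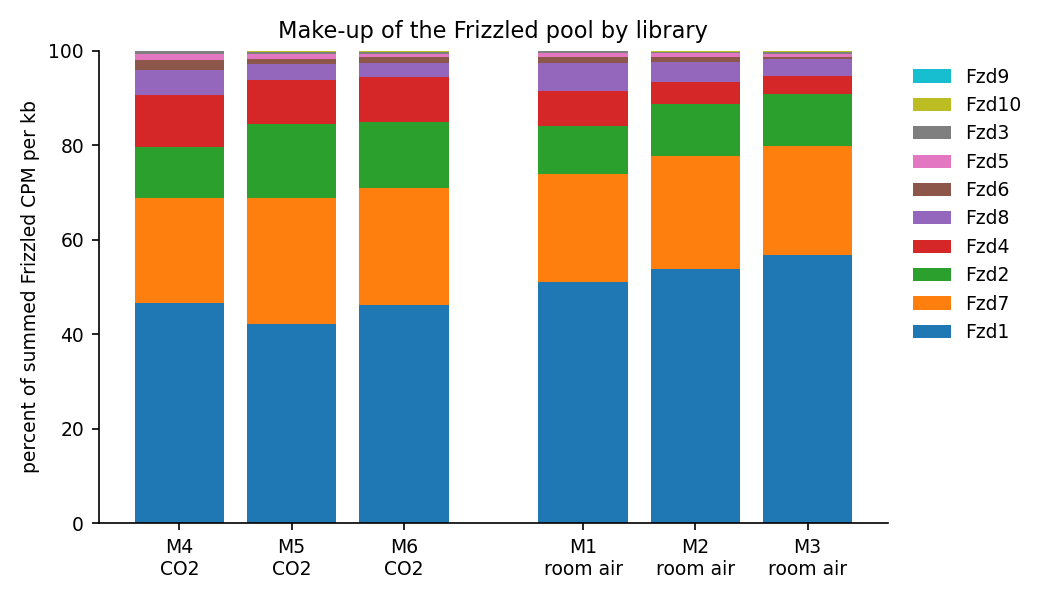
Share of each Frizzled gene in the summed Frizzled level (percent of CPM per kb), 1 bar per library, with the CO2 (hypercapnia) libraries left of the room air libraries. The Fzd1 share is 42.1% to 46.6% in hypercapnia and 51.0% to 56.7% in room air, and the Fzd4 share 9.43% to 11.1% in hypercapnia and 3.92% to 7.46% in room air.

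The ligands that Frizzleds bind were measured in the same fit. Of 19 Wnt genes 8 were tested, 1 was called higher and 7 did not pass, with a median log2 fold change of 0.32. Of all tested genes 1.22% were called, 0.523% higher and 0.700% lower. The same shares stand beside each list that follows. Wnt5a, a ligand of Frizzled and ROR receptors that acts mainly without beta-catenin, had 113, 162 and 128 CPM in M4, M5 and M6, against 87.3, 85.1 and 72.6 CPM in M1, M2 and M3 (0.72 ± 0.15, edgeR adjusted p = 0.0467). Taking the endothelial level as a covariate ended its call (0.117), as did leaving out M1 (0.0835), M2 (0.210), M3 (0.0923), M5 (0.199) or M6 (0.130), and 4.58% of its exonic bases overlap another gene model. Wnt2b (0.99 ± 0.24, 0.0949, with 0.0155 by DESeq2) and Wnt2 (-0.37 ± 0.11, 0.166) did not pass.

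Of 5 genes of other secreted proteins, Norrin and the R-spondins that protect Frizzleds from degradation, 4 were tested and none was called, with a median of -0.69. Rspo4 had 2.16, 1.67 and 2.43 CPM in M4, M5 and M6, against 5.07, 6.61 and 4.45 CPM in M1, M2 and M3 (-1.36 ± 0.41, edgeR adjusted p = 0.180). Rspo3 (-0.99 ± 0.67) and Rspo1 (0.65 ± 0.50) had wide errors, and single libraries moved them: Rspo3 was at -0.24 without M2, and Rspo1 at 0.26 without M1 and 1.138 without M2. The gene under the filter was Ndp, which encodes Norrin, the ligand of Fzd4, and which is named here after its counts were seen. It had 0, 4 and 4 counts in M4, M5 and M6, against 21, 12 and 8 counts in M1, M2 and M3, so that all hypercapnia libraries were below all room air ones at a very low level. In the fit without a filter its log2 fold change was -2.49 ± 1.18 with an adjusted p of 0.406.

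None of 9 tested co-receptors of 10 was called, and their median log2 fold change was 0.05. Tspan12, a tetraspanin that joins Fzd4 in the Norrin receptor, had 36.4, 34.9 and 30.2 CPM in M4, M5 and M6, against 19.0, 22.5 and 11.1 CPM in M1, M2 and M3. All hypercapnia libraries were above all room air libraries, as in 9.25% of all tested genes. The difference was 0.95 ± 0.24 on the log2 scale (edgeR adjusted p = 0.0964, with 0.00838 by DESeq2 and 0.0449 with robust dispersion). Like Fzd4 it was lowest in M3, where the endothelial level was lowest. With that level as a covariate its value was 0.47 ± 0.22 (adjusted p = 0.325), and without M3 it was 0.70 (0.111). Ror1, a co-receptor for Wnt5a, had 24.2, 22.6 and 21.4 CPM in M4, M5 and M6, against 15.2, 13.6 and 11.7 CPM in M1, M2 and M3 (0.75 ± 0.18, edgeR adjusted p = 0.0913, 0.0390 with DESeq2). Ptk7, a kinase-dead co-receptor of the polarity branch, stood at 569.8 ± 10.5 CPM in hypercapnia and 679.8 ± 31.7 CPM in room air (SD, n = 3), a log2 fold change of -0.25 ± 0.10 (edgeR adjusted p = 0.317). Lrp5 and Lrp6, named here after their values were seen because every beta-catenin signal of a Frizzled needs them, had log2 fold changes of -0.27 ± 0.14 and -0.06 ± 0.13.

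Of 7 planar polarity partners 6 were tested and none was called, with 5 positive values and a median of 0.34. Prickle1 (0.52 ± 0.20), Celsr2 (1.62 ± 0.62) and Vangl2 (0.50 ± 0.21) had edgeR adjusted p of 0.298, 0.299 and 0.379. Celsr2, an adhesion receptor of the polarity complex, had 11.4, 9.43 and 13.4 CPM in M4, M5 and M6, against 1.65, 8.39 and 0.953 CPM in M1, M2 and M3, so that M2 alone of the room air libraries came near the hypercapnia level. Without M2 its value was 3.13 ± 0.41 and it was called (adjusted p = 0.0400, where 0.179% of all genes were called). M3, which had the lowest endothelial level, also had the lowest summed level of the planar polarity partners, at 147 CPM against 207 to 211 CPM in M1 and M2. With the endothelial covariate Prickle1 was at 0.085 ± 0.16, Celsr2 at 0.90 ± 0.68 and Vangl2 at 0.75 ± 0.27, none of them called. Of 8 genes that control how long Frizzleds stay at the membrane 6 were tested and none was called, with a median of -0.17. Znrf3, the ubiquitin ligase that removes Frizzleds, had a log2 fold change of -0.33 ± 0.12 (edgeR adjusted p = 0.287), and Shisa2 and Shisa3, which hold Frizzleds back inside the cell, 0.29 ± 0.13 and -0.66 ± 0.50, the last at -0.25 without M4.

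Of 11 soluble antagonists 7 were tested, where 0.523% of all tested genes were called higher, and only Sfrp4 was called. It encodes a secreted protein with a Frizzled-like Wnt-binding domain, and had 20.8, 18.5 and 21.9 CPM in M4, M5 and M6, against 7.89, 9.55 and 9.43 CPM in M1, M2 and M3 (1.19 ± 0.20, edgeR adjusted p = 0.0222). The call was lost without M1 (0.0567), M2 (0.1001), M4 (0.0517), M5 (0.0915) or M6 (0.111). Wif1 (0.98 ± 0.47) and Dkk3 (-0.21 ± 0.10) did not pass. Inside the cell, none of 11 Dishevelled and destruction complex genes was called, and their median was 0.00. The 3 with the smallest p were Dvl2 (0.24 ± 0.16), Dvl1 (-0.19 ± 0.13) and Dact3 (-0.11 ± 0.10).

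Of 15 beta-catenin target genes 12 were tested, 1 was called higher, 1 lower and 10 did not pass, with a median of -0.04. Of all tested genes 0.523% were called higher and 0.700% lower. Tnfrsf19, a receptor of the tumour necrosis factor family and a beta-catenin target, fell to 202, 193 and 184 CPM in M4, M5 and M6, against 331, 354 and 303 CPM in M1, M2 and M3. On the log2 scale it fell by 0.77 ± 0.11 (SE; edgeR adjusted p = 0.00974), and the call was lost without M2 (0.0780), M5 (0.0743) or M6 (0.0554). Ccn4, a secreted matricellular protein, had 41.1, 42.4 and 52.8 CPM in M4, M5 and M6, against 16.7, 21.0 and 11.9 CPM in M1, M2 and M3. It rose by 1.46 ± 0.21 on the log2 scale (edgeR adjusted p = 0.0104), with its call lost without M5 (0.0558) or M6 (0.0647). Ccnd1, which encodes cyclin D1, had 30.8, 30.4 and 22.9 CPM in M4, M5 and M6, against 15.4, 19.3 and 6.35 CPM in M1, M2 and M3 (1.03 ± 0.33, edgeR adjusted p = 0.194, 0.0382 with DESeq2). It too was lowest in M3, and its value was 0.29 with the endothelial covariate (adjusted p = 0.640) and 0.69 without M3 (0.176). A gene model on the other strand covers 23.4% of its exonic bases. Axin2, a feedback gene of beta-catenin signalling named here after its values were seen, had a log2 fold change of 0.01 ± 0.11 (edgeR adjusted p = 0.985). Its level was 99.2 ± 8.24 CPM in hypercapnia and 98.5 ± 2.85 CPM in room air (SD, n = 3). Taking all lists as 1 set, 4 of 60 tested genes of 82 were called, 3 higher and 1 lower, where 0.523% and 0.700% of all tested genes were called higher and lower. Their median log2 fold change was 0.03. The lists were drawn up with earlier results of these data known, so these counts are a description.

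**Figure D5:**
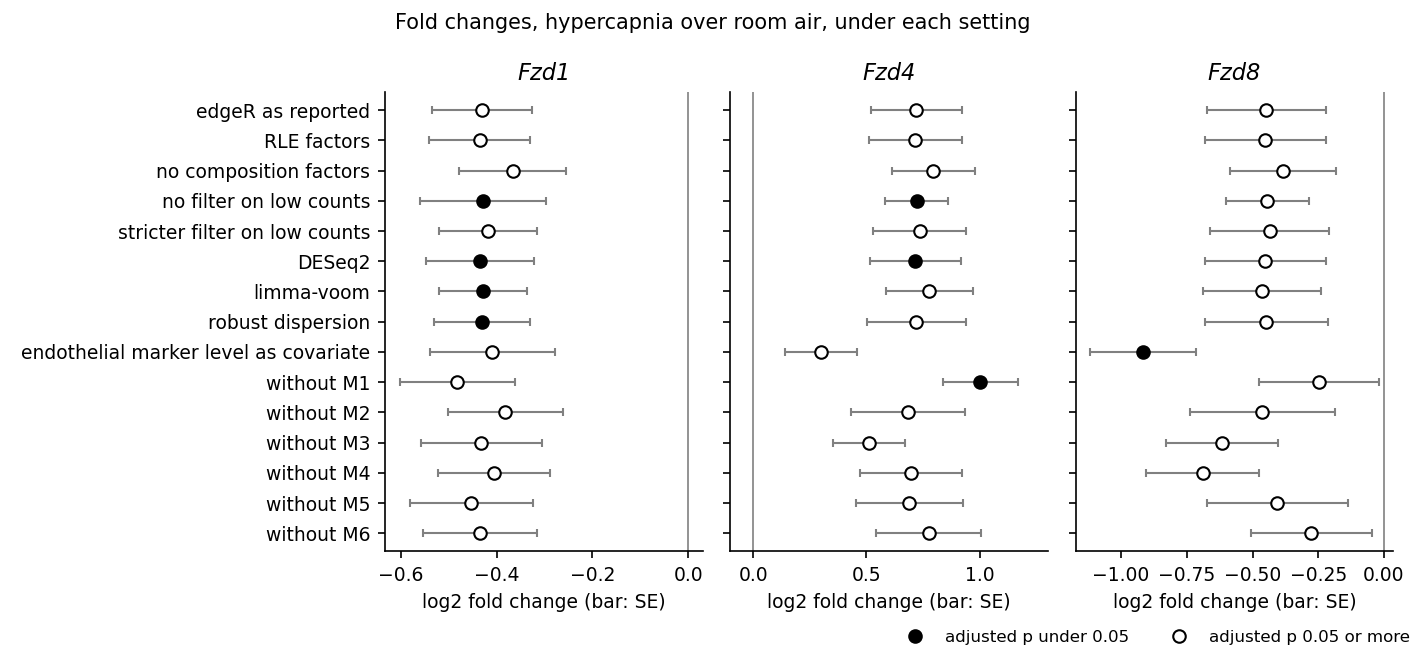
Log2 fold change (hypercapnia over room air, bars show the SE) of Fzd1, Fzd4 and Fzd8 as reported and under 14 alternative settings, filled where the adjusted p was under 0.05. Fzd1 stays between -0.48 and -0.37, Fzd4 moves between 0.30 and 1.002, and Fzd8 is called only with the endothelial covariate, at -0.92.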

How the data were processed

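The deposited table holds raw read counts per Ensembl gene ID in 6 columns. The submitters' processing notes name the mm10 build and the tools TopHat2 2.1.0, HTSeq, FastQC and bcl2fastq 2.17.1.14, without their order. For the annotation release, read filters and strand setting: not given in the sources used here. Column totals exceed the range of aligned reads that the labels name. Columns carry the group but not the sample number, so each was assigned to a group only, and no pairing exists. Symbols, positions and exon lengths came from GENCODE M21, which named 42462 of the 43430 IDs.

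Genes were tested with edgeR 4.0.16 under R 4.3.3 by the two-sided quasi-likelihood method, fitting the group alone to the 6 libraries with TMM factors of 0.943 to 1.05 and edgeR's filter by group with a minimum count of 10, which kept 13005 genes. P-values were adjusted by Benjamini-Hochberg over all tested genes, with a threshold of 0.05. The SE is the log2 fold change divided by the square root of F, and 95% intervals use the t distribution with 10.6 degrees of freedom. CPM per kb divides by the union of annotated exons, which understates genes with long unused exons. Levels of marker lists on the log2 scale use a prior count of 2. DESeq2 1.42.0 and limma 3.58.1 served as alternatives. The fits were also run on counts simulated with dispersions estimated from these data, which is no check on the calls given here. Replicate libraries differed by a chi-square per degree of freedom of at least 12.6, so none repeats another.

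The members and gene lists were chosen with earlier results of these data known. Named genes are all 10 members and, in each pathway list, every called gene and enough with the smallest p to make 3. Genes outside this are marked. Precision is set by 3 libraries per group and by depth: 3 counts equal 0.294 to 0.333 CPM before TMM scaling.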

Additional observations from a re-analysis of the deposited data

How the results depend on the processing

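Of 9 tested Frizzled genes 0 were called by edgeR as reported (1.22% of all tested genes called), with RLE factors (1.18%) and without composition factors (1.32%). With the stricter filter of 5 CPM in 3 libraries, which Fzd10 did not pass, the count was also 0. The count was 2 with DESeq2 (3.34% of all tested genes called) and with no filter (3.62%). It was 1 with limma-voom (1.51%), with robust dispersion (1.96%) and with the endothelial covariate (1.39%). It ran from 0 to 1 when single libraries were left out, with Fzd4 called without M1 (0.818%). Over all genes the 159 calls became 756 with no filter, 435 with DESeq2 and 255 with robust dispersion, and ranged from 24 (without M2) to 148 (without M4), with 27 without M5 and 42 without M6. The 4 Wnt pathway calls of 60 tested became 10 of 77 with no filter (3.62% of all tested genes) and 8 of 60 with DESeq2 (3.34%). They ranged from 0 without M5 (0.203%) or M6 (0.317%) to 3 without M3 (0.889%) or M4 (1.1%). With no filter the p-values are those of a normal distribution, so its calls carry little of the spread of single genes between pools. The log2 ratio of the summed Frizzled level was -0.17, between -0.24 and -0.12 with single libraries left out, and 0.086 without Fzd1.

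Fzd1, Fzd4 and Fzd8 kept their direction in all 14 settings, with Fzd8 between -0.69 and -0.25 when single libraries were left out. The direction of uncalled genes turned for Fzd3 (-0.0073) and Fzd10 (-0.87) with limma-voom and for Fzd5 (-0.37), Fzd6 (-0.31) and Dvl1 (0.012) with the endothelial covariate. With single libraries left out, Fzd2 ran from -0.023 to 0.36, Fzd3 from -0.24 to 0.27, Fzd5 from -0.061 to 0.34, Fzd7 from -0.23 to 0.027 and Fzd10 from -0.51 to 0.65. The cause of these shifts was not tested. No paired analysis was possible because the columns carry no replicate number shared between groups. Fzd9, with 4 counts in all, is limited by depth, and at 3 libraries per group the interval of Fzd6 spans values from -0.30 to 1.67.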
